A study of Mus musculus with 15 samples.

Results

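The 10 genes described here, Lyz2, Csf1r, Cd68, C1qa, C1qb, C1qc, Mrc1, Itgax, Cx3cr1 and Cd163, are genes by which macrophages and dendritic cells are commonly recognised. They were chosen by symbol from the 45808 rows of a table of gene expression in the mouse cecum, and each was found once. Expression was measured in 7 mice with antibiotic-induced microbiome depletion (AIMD) and in 8 vehicle-treated mice, all wild-type C57BL/6 mice and, by the methods of the study, male. The labelled age is 20 weeks, although the starting age in the methods and 30 days of gavage add up to less. AIMD mice were gavaged 2 times a day for 30 days with ampicillin, vancomycin, metronidazole, neomycin and the antifungal amphotericin B, and vehicle mice with water, to learn how the loss of gut microbes affects the host. Poly-A RNA was prepared from the whole wall of the emptied cecum, so that each value mixes epithelium, immune cells and muscle, and fewer cells of a type cannot be told apart from less RNA per cell. Mice were housed several to a cage, and which mice shared a cage is not given in the sources used here.

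Macrophages of the gut wall take up microbes and dying cells beneath the epithelium, and those of the intestine are largely renewed from blood monocytes. Their survival depends on the receptor encoded by Csf1r, which binds the growth factors Csf1 and Il34. Dendritic cells carry antigens to lymph nodes and share several genes with macrophages, Itgax among them. Macrophages are a main source of complement C1q, which is built from the chains encoded by C1qa, C1qb and C1qc, and macrophages resident in the muscle layer and around vessels are rich in the scavenger receptors Mrc1 and Cd163.

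In AIMD mice the macrophage lysozyme Lyz2, the growth factor receptor Csf1r, the C1q chain C1qa and the lysosomal protein Cd68 were expressed at a higher level than in vehicle mice, and the means were 2.58, 2.20, 1.56 and 1.57 times as high. By limma 0 of the 9 genes tested were lower, with 1, Mrc1, at an unadjusted p under 0.05, but Mrc1 and Cd163, the scavenger receptors of resident macrophages, had vehicle means 1.95 and 2.00 times the AIMD means. C1qb, C1qc, Itgax and Cx3cr1 did not pass the test. Thus 4 of the 9 genes tested were called, all of them higher, where 36.1% of 11983 genes in the whole table were called, 19.4% higher and 16.7% lower. In none of the 9 genes did the groups lie fully apart, as they did in 8.55% of all genes tested. The share called among the 9 was near that of all genes, so the number of calls is no particular feature of macrophage genes.

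Levels are given as FPKM, a read number scaled to gene length and library depth. Tests were run with limma on log2(FPKM + 0.5) after a further size factor, with Benjamini–Hochberg adjustment over the 11983 genes that reached an FPKM of 0.5 in at least 7 mice. Log2 fold changes are on that scale, which understates the change of low genes. Each FPKM came in whole steps of a single read, which gave the number of reads behind each value. AIMD mice had 8679685–18108594 reads on genes (median 11244651) and vehicle mice 4372429–14405961 (median 7855373), so that low genes are counted less precisely in vehicle mice. Vehicle replicate 8 was the least deep.

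**Figure D1:**
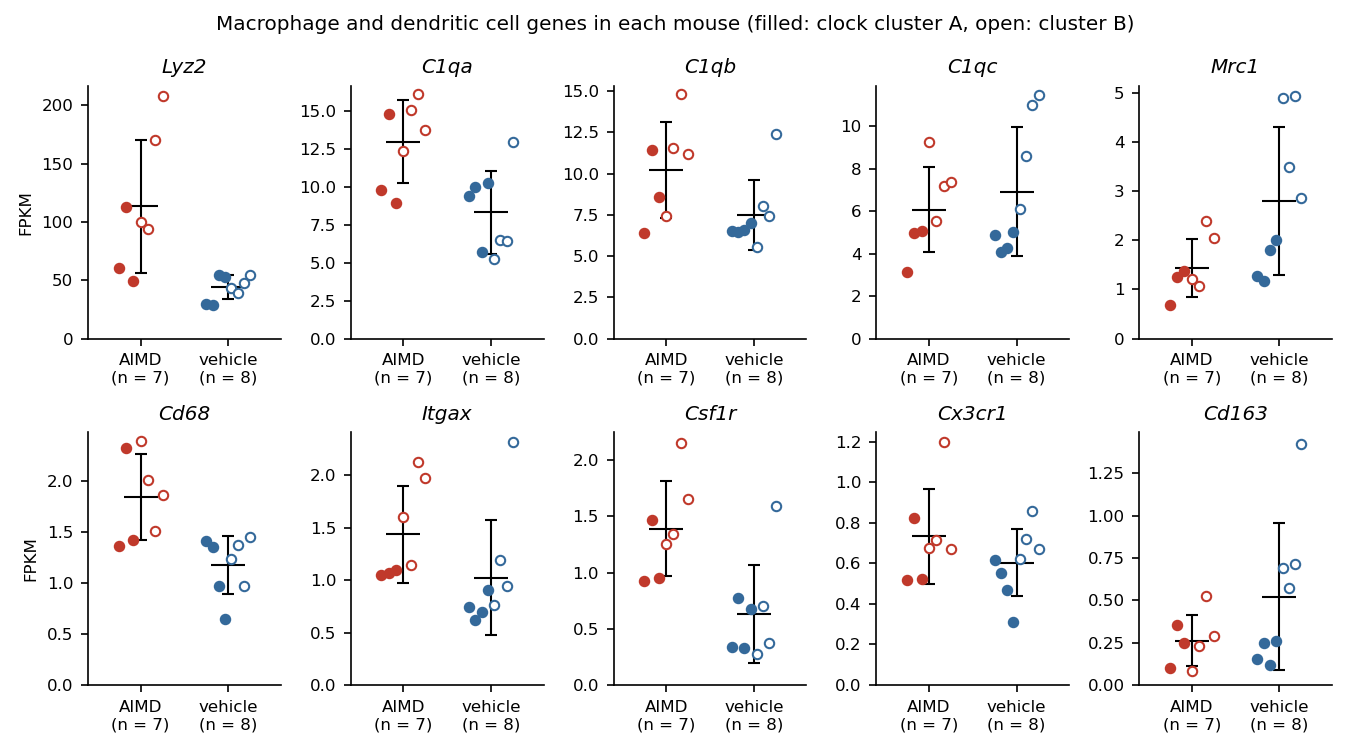
FPKM (vertical axes, starting at 0) of the 10 genes in each of 7 AIMD mice (red) and 8 vehicle mice (blue), with bars for the mean ± SD and filled or open points for clusters A and B of the mice in the circadian clock genes. Lyz2 lies above the highest vehicle mouse in 6 of 7 AIMD mice, and Mrc1, C1qc and Cd163 are high in the open vehicle points. Vehicle replicate 8 is the highest vehicle point of every gene but Mrc1 and Cx3cr1, and stands farthest apart in Csf1r, C1qb, Itgax and Cd163.

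Lyz2 encodes the lysozyme of macrophages and other myeloid cells, an enzyme that cuts the bacterial cell wall. On GRCm38 the gene spans 117277331 to 117282321 of chromosome 10 (minus strand). AIMD mice had an FPKM of 49.1 at the lowest, 99.6 at the median and 208 at the highest, against 29.0, 45.8 and 54.7 in vehicle mice. The 2 groups overlapped through a single AIMD mouse, which lay below the highest vehicle mouse. AIMD mice averaged 113 ± 57.2 (SD, n = 7) and vehicle mice 43.9 ± 10.4 (SD, n = 8), which gave a log2 fold change of 1.24 ± 0.27 (SE, limma adjusted p = 0.00199). Lyz2 had the highest level of the 10 genes in both groups and rested on 279–3027 reads a mouse. Of its 50-base windows, 15.4% also occur in the neighbouring paralog Lyz1, the lysozyme of Paneth cells, so some reads could not be assigned to one of them. Lyz1 itself averaged 13.7 ± 7.54 (SD, n = 7) FPKM under AIMD and 10.3 ± 3.09 (SD, n = 8) under vehicle and did not pass the test (log2 fold change 0.28, limma adjusted p = 0.502).

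Cd68 encodes a glycoprotein of the lysosomal membrane that is used to stain macrophages. The gene spans 69664213 to 69666153 of chromosome 11 (minus strand). The FPKM ran from 1.37 to 2.39 with a median of 1.86 in AIMD mice, and from 0.643 to 1.45 with a median of 1.29 in vehicle mice. In 5 of 7 AIMD mice Cd68 was above every vehicle mouse, and 5 of 8 vehicle mice lay below every AIMD mouse. The log2 fold change was 0.48 ± 0.14 (SE, limma adjusted p = 0.0145). Only 25–35 reads in AIMD mice and 8–23 in vehicle mice stood behind these values. The call was lost with limma voom on the recovered reads (adjusted p = 0.0555).

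Csf1r encodes the receptor tyrosine kinase on which macrophages depend, on the plus strand of chromosome 18. In AIMD mice its FPKM was 0.925 at the lowest, 1.34 at the median and 2.15 at the highest. Vehicle-treated mice had 0.278, 0.528 and 1.59, and 7 of the 8 lay below the lowest AIMD mouse. The exception was vehicle replicate 8, more than 2 times as high as the next vehicle mouse at 0.772. The log2 fold change was 0.78 ± 0.20 (SE, limma adjusted p = 0.00640), and 0.92 without that mouse. Csf1r entered the test through the AIMD mice, since 4 of 8 vehicle mice had an FPKM under 0.5. Reads numbered 51–138 in AIMD mice and 7–51 in vehicle mice. Exons of Hmgxb3 on the opposite strand cover 15.1% of its exon bases. The library kit marks strand, but the strand setting of the read counting is not given in the sources used here.

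The chains of C1q, the protein that starts the classical complement cascade on bound antibody and on dying cells, are encoded side by side on chromosome 4, with C1qb at 136880129–136886187, C1qc at 136889804–136893065 and C1qa at 136895917–136898803, all on the minus strand. Despite this shared place and shared protein, C1qa was called while C1qb and C1qc were not. No test of a difference between the chains is given here. C1qa had an FPKM of 8.91 to 16.1 (median 13.8) in AIMD mice and of 5.22 to 13.0 (median 7.97) in vehicle mice, with 4 AIMD mice above every vehicle mouse. Its log2 fold change was 0.64 ± 0.19 (SE, limma adjusted p = 0.0141), a rise under AIMD. With an exact rank-sum test in place of limma its adjusted p was 0.0574.

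C1qb ran from 6.42 to 14.8 (median 11.2) in AIMD mice and from 5.52 to 12.4 (median 6.80) in vehicle mice. Its log2 fold change of 0.41 ± 0.18 (SE) did not pass the test (limma adjusted p = 0.0819). Without vehicle replicate 8, the only vehicle mouse above 8.01, it was 0.51 and passed (limma adjusted p = 0.0163). It also passed without AIMD replicate 1, the AIMD mouse with the lowest value.

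C1qc had nearly the same median in both groups, 5.52 in AIMD mice and 5.57 in vehicle mice, within ranges of 3.14 to 9.27 and of 4.06 to 11.5. The log2 fold change was -0.14 ± 0.24 (SE, limma adjusted p = 0.683), with a 95% interval from -0.63 to 0.35, so that a modest change in either direction could not be seen. At 61–185 reads a mouse, C1qc was counted about as well as C1qa, at 28–220.

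Mrc1 encodes the mannose receptor CD206, a scavenger receptor for glycoproteins, on the plus strand of chromosome 2 from 14229392 to 14332057. In AIMD mice its FPKM was 0.692 at the lowest, 1.26 at the median and 2.40 at the highest, and in vehicle mice 1.17, 2.44 and 4.94. In 4 vehicle mice Mrc1 was above every AIMD mouse, and 2 AIMD mice lay below every vehicle mouse. The means were 1.44 ± 0.590 (SD, n = 7) and 2.81 ± 1.51 (SD, n = 8). The log2 fold change of -0.69 ± 0.27 (SE) lay at the threshold without passing it (limma adjusted p = 0.0515). It passed under 4 of 11 alternatives and without any one of AIMD replicates 6 and 7 and vehicle replicates 1, 2 and 3, at log2 fold changes from -0.84 to -0.57 over these 11 alternatives and 15 mice left out in turn.

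Cd163 encodes the receptor for haptoglobin-bound haemoglobin, on chromosome 6 from 124304656 to 124330527 on the plus strand. Its FPKM of 0.0802 to 0.525 (median 0.246) in AIMD mice and 0.120 to 1.42 (median 0.417) in vehicle mice was too low for the filter, with 1 AIMD mouse and 4 vehicle mice at 0.5 or above. These values rested on 3–31 reads in AIMD mice and 4–28 in vehicle mice. With no filter, its log2 fold change was -0.35 (limma adjusted p = 0.321). The 4 vehicle mice above every AIMD mouse were replicates 5 to 8, the same 4 as for Mrc1.

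Itgax encodes CD11c, the integrin chain of dendritic cells and gut macrophages, and lies at 128129547 to 128150657 of chromosome 7. Its FPKM was 1.05 to 2.13 (median 1.14) in AIMD mice and 0.622 to 2.32 (median 0.839) in vehicle mice. All but 2 vehicle mice lay below the lowest AIMD mouse, yet the highest value of all was that of vehicle replicate 8. The log2 fold change was 0.37 ± 0.19 (SE, limma adjusted p = 0.133), and 0.51 without that mouse (limma adjusted p = 0.0124). Of the 50-base windows of Itgax, 8.02% also occur in its paralog Itgad.

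Cx3cr1, on chromosome 9 from 119901616 to 120069879, encodes the fractalkine receptor of resident gut macrophages. Its FPKM was 0.520 to 1.20 (median 0.674) in AIMD mice and 0.312 to 0.857 (median 0.620) in vehicle mice, and the groups lay largely on top of each other. The log2 fold change was 0.15 ± 0.14 (SE, limma adjusted p = 0.391), with a 95% interval from -0.12 to 0.43.

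**Figure D2:**
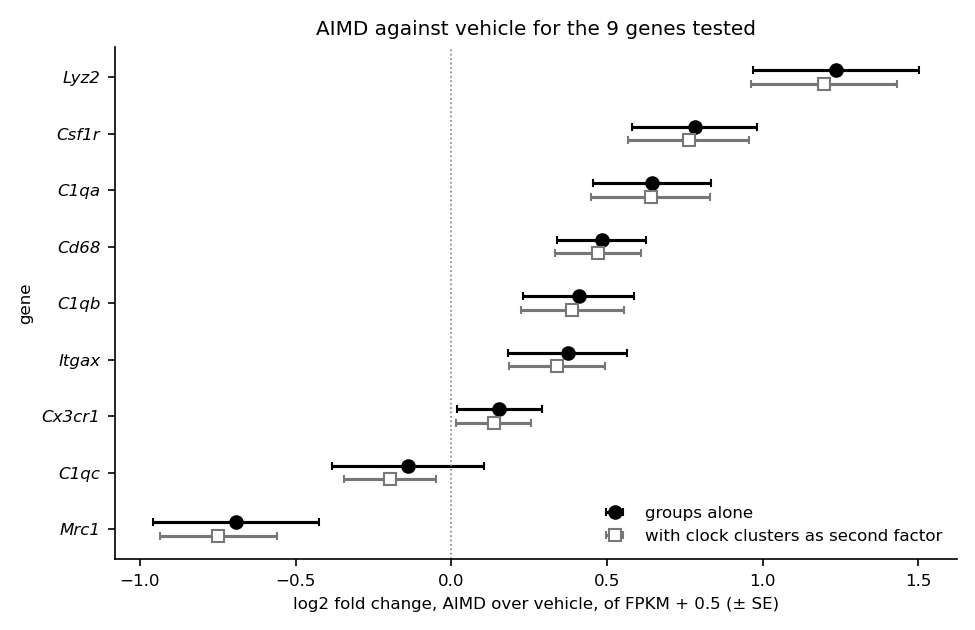
Log2 fold change of AIMD over vehicle (horizontal axis, of FPKM + 0.5) with its standard error for the 9 genes tested, from the groups alone (black circles) and with the clock clusters as a second factor (grey squares). Estimates run from 1.24 for Lyz2 to -0.69 for Mrc1, and the second factor leaves their order as it is while it narrows the error of Mrc1 and C1qc.

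The number called depended on the fit. It was 3 of 9 with limma voom on the recovered reads, where 37.2% of all genes were called, and 6 of 9 without vehicle replicate 8 (38.9% of all genes), with C1qb and Itgax added. A clock-gene score added to the model also gave 6 (42.6% of all genes), with Itgax higher and Mrc1 lower as added calls. Blocks by replicate number, which leave out vehicle replicate 8, gave 7 (39.0% of all genes). Same-numbered mice were not shown to be pairs, but all except replicate 4 shared a clock cluster.

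The ratio of Mrc1 to Csf1r within a mouse separated the groups, which neither gene did alone. This ratio and those that follow were chosen after the values were seen and are given without a test. Mrc1 had 0.747 to 1.46 times the FPKM of Csf1r in AIMD mice (median 0.962) and 1.52 to 17.6 times in vehicle mice (median 4.40), with no overlap. Csf1r rested on 51–138 reads in AIMD mice but on 7–51 in vehicle mice, so the vehicle ratios are less precise. The largest, in vehicle replicate 5, divides by a Csf1r value of 7 reads. The smallest vehicle ratio, in replicate 2, was close to the largest AIMD ratio. The ratio of C1qa to C1qc overlapped between the groups. C1qa stood at a median of 2.24 times the FPKM of C1qc in AIMD mice (1.33 to 3.12) and at 1.23 times in vehicle mice (0.588 to 2.45). In clock clusters A and B this ratio was 1.34–2.45 and 0.588–1.13 in vehicle mice, and 1.77–3.12 and 1.33–2.73 in AIMD mice. Lyz2 had a median of 8.33 times the FPKM of Lyz1 in AIMD mice and 4.25 times in vehicle mice.

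**Figure D3:**
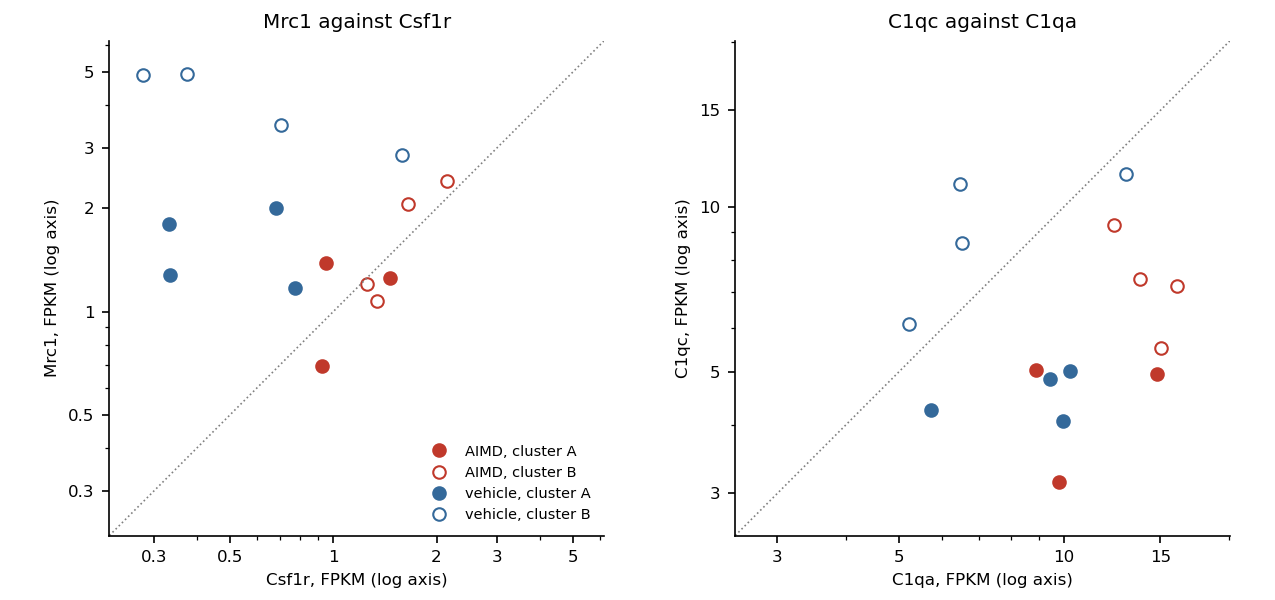
FPKM in each mouse on log axes, Mrc1 against Csf1r on the left and C1qc against C1qa on the right, for 7 AIMD (red) and 8 vehicle-treated (blue) mice, with filled and open points for clock clusters A and B and a dotted line of equal FPKM. AIMD mice keep near the line for Mrc1 and Csf1r while all vehicle mice lie above it, and the only mice with more C1qc than C1qa are 3 vehicle mice of cluster B.

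The study had time of sacrifice as a factor, which the labels do not give for each mouse. The mice fell into 2 clusters in 12 circadian clock genes. Cluster A held AIMD replicates 1 to 3 and vehicle replicates 1 to 4, and cluster B the other 4 mice of each group. The clusters come from these data and are not groups of the study. Mrc1 and C1qc varied with them in vehicle mice. Mrc1 had an FPKM of 1.17–2.00 in vehicle mice of cluster A and of 2.87–4.94 in those of cluster B. This is a log2 difference of 1.13 ± 0.24 (SE, limma adjusted p = 0.0153). C1qc had 4.06–5.03 and 6.12–11.5, a log2 difference of 0.92 ± 0.20 (SE, limma adjusted p = 0.0190). These were 2 of the 9 genes, where 9.61% of all genes passed. Cd163, not tested, had 0.120–0.260 in cluster A and 0.575–1.42 in cluster B of the vehicle mice.

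In AIMD mice none of the 9 genes differed between clusters by limma, with 2 at an unadjusted p under 0.05, Lyz2 and C1qc, where 0.1% of all genes passed. AIMD Mrc1 ran from 0.692 to 1.38 in cluster A and from 1.08 to 2.40 in cluster B. Whether the clusters differed more in vehicle than in AIMD mice was tested as an interaction. It passed for 0 of 11983 genes in limma, with 536 at an unadjusted p under 0.05 and 0 of the 9 genes among them (Mrc1 -0.71 ± 0.35 SE, limma adjusted p = 0.993). A difference in cluster effect between the groups was therefore not shown.

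Compared within the clusters, a choice made after the data were seen, AIMD and vehicle mice differed for Lyz2, Csf1r and C1qa (higher) and Mrc1 (lower) in cluster B, where 29.9% of all genes passed. There Mrc1 was lower by 1.08 on the log2 scale (-1.08 ± 0.24 SE, limma adjusted p = 0.00395). In cluster A, with 3 mice against 4, 0 of the 9 genes passed in limma, with 3 at an unadjusted p under 0.05 (Lyz2, Cd68 and Csf1r), where 13.3% of all genes passed. The estimates for Lyz2, Csf1r, C1qa and Cd68 were 0.80, 0.66, 0.32 and 0.47 in cluster A and 1.54, 0.85, 0.91 and 0.47 in cluster B. With the clusters as a second factor, 5 of the 9 genes passed, where 41.9% of all genes did, and Mrc1 was the added call (-0.75 ± 0.19 SE, limma adjusted p = 0.00505).

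Summed markers of the muscle layer and of enteric nerves also ran higher in cluster B than in cluster A of the vehicle mice, with overlap. In AIMD mice they did not, and the sums were not tested. The summed FPKM of 10 smooth muscle genes was 590–844 and 230–833 in AIMD mice of clusters A and B, and 543–1427 and 916–3185 in vehicle mice. For 10 enteric neuron and glia genes it was 3.89–6.65 and 3.47–6.33 in AIMD mice of clusters A and B, and 5.83–22.4 and 20.0–91.3 in vehicle mice. Both sums were highest in vehicle replicate 8. The part of these tissues in the values of Mrc1, C1qc, Cd163 and the other genes was not tested.

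Between mice of the same group, pairs of the genes varied together to unequal degrees. Over the 36 pairs of the 9 genes, with log2 values centred within the groups, Pearson's r over 15 mice ran from -0.23 to 0.83 with a median of 0.48. Under a permutation test within groups, 4 pairs had both Pearson's and Spearman's adjusted p under the threshold. Csf1r varied with C1qa (r = 0.80, permutation adjusted p = 0.00960; rho = 0.79, adjusted p = 0.0274) and with C1qb (r = 0.83, permutation adjusted p = 0.00576; rho = 0.71, adjusted p = 0.0274). Without vehicle replicate 8 and AIMD replicate 6, the mice farthest from the median of Csf1r, these were 0.70 and 0.60, and centred within the clock clusters too they were 0.86 and 0.80.

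C1qc varied with Itgax (r = 0.78, permutation adjusted p = 0.00576; rho = 0.87, adjusted p = 0.00180) and with Mrc1 (r = 0.71, permutation adjusted p = 0.0423; rho = 0.76, adjusted p = 0.0413). Without vehicle replicates 7 and 8 these were 0.81 and 0.68. Centred within the clock clusters, r was 0.57 for C1qc and Itgax and 0.13 for C1qc and Mrc1, so that the latter relation rested on the difference between clusters. Of the genes outside the lists described here, those most like the mean of the C1q chains over 15 mice were Fstl1 (r = 0.88), Icam1 (r = 0.87), Bgn (r = 0.87), Cbx6 (r = 0.87) and Crispld2 (r = 0.86). These were picked as the highest of all genes, share libraries and depth with the C1q values, and are a description only.

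The promoters were read for a motif because several of the genes are known targets of PU.1, the factor that directs myeloid cells. RefSeq windows of GRCm38.p6, from 250 bases before to 50 bases after the start, were found for 8 of the 10 genes and not for C1qa and Csf1r. The letters AGGAAGT, the core of a PU.1 site, were chosen after these windows had been read and were searched on both strands. They stood in 4 of the 8, Lyz2, C1qb, C1qc and Mrc1, and in 9.35% of all 32851 windows of 300 bases. The motif lay 100, 53, 195 and 211 bases before the RefSeq start, each time on the strand opposite to the gene, and is shown as ACTTCCT in capitals within the sense strand, 5′ to 3′, at chr10:117282326-117282412 (minus), chr4:136886207-136886293 (minus), chr4:136893066-136893149 (minus) and chr2:14229164-14229249 (plus). A match is a description of letters, not of binding, and of the 4 genes Lyz2 was called higher and the other 3 were not called.
Lyz2: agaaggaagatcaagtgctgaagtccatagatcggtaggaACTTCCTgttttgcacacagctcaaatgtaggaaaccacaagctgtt
C1qb: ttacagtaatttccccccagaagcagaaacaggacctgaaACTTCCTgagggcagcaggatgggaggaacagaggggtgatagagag
C1qc: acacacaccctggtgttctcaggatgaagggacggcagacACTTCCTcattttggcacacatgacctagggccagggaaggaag
Mrc1: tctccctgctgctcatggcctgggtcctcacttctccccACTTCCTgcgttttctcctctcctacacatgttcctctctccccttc

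Most other macrophage genes did not pass the test. Of 24 on the list, 15 were tested, 2 were higher and 1 was lower, where 19.4% of all genes were higher and 16.7% lower. The median log2 fold change was 0.10, against 0.01 over all genes and 0.41 over the 9 genes. Mpeg1, the pore-forming protein perforin-2 of macrophages, was higher, at 5.41 ± 2.13 (SD, n = 7) against 2.72 ± 0.867 (SD, n = 8) FPKM (log2 fold change 0.85, limma adjusted p = 0.00643). Hpgds, a prostaglandin D synthase, was called higher as well (0.51, limma adjusted p = 0.0284), but not without any one of AIMD replicates 6 and 7 and vehicle replicates 1 and 6. Clec10a, a galactose-binding lectin of macrophages and dendritic cells, was called lower (-0.49, limma adjusted p = 0.0361), and 9.02% of its windows are shared with Mgl2 and other genes. That call was lost without any one of AIMD replicates 1, 4, 5 and 7 and vehicle replicates 1, 5, 7 and 8, and under 3 of 10 alternatives (adjusted p up to 0.0928). Adgre1, which encodes F4/80, had a log2 fold change of 0.45 (limma adjusted p = 0.102), the apoptotic cell receptor Mertk of 0.28 (limma adjusted p = 0.151) and Cd14 of -0.02 (limma adjusted p = 0.912), none of which passed. Fcgr1 (0.317 ± 0.203 and 0.129 ± 0.0741 FPKM in AIMD and vehicle mice) and Itgam (0.470 ± 0.344 and 0.478 ± 0.132) were too low to test, and 68.7% of the exon bases of Itgam are shared with Gm49368 on the same strand.

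Lysosomal proteases and scavenger receptors, many of which epithelium expresses too, gave 5 lower and 1 higher of 12 tested, where 16.7% of all genes were lower and 19.4% higher. The 5 became 3 with no filter on low values and without any one of AIMD replicates 1, 3, 4, 5 and 6 and vehicle replicates 5 and 7. The proteases Lgmn and Ctsl fell by 1.16 and 1.15 on the log2 scale (limma adjusted p = 0.000411 and 3.07e-05), Ctsl with 26.9% of its exon bases overlapped by genes on the opposite strand. Cd63, a tetraspanin of late endosomes, was lower too (-0.88, limma adjusted p = 0.00436). The fatty acid and scavenger receptor Cd36 and the scavenger receptor Stab1 were called lower (-0.64 and -0.55, limma adjusted p = 0.0455 and 0.0378), calls that were kept with only 5 and 7 of 15 mice left out in turn. Lgals3, the galactose-binding lectin galectin-3 of macrophages and enterocytes, was the one that was higher (0.65, limma adjusted p = 0.00230), at 2806 ± 419 (SD, n = 7) against 1787 ± 270 (SD, n = 8) FPKM.

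Genes that define dendritic cells were near the limit of detection. Flt3, the growth factor receptor of dendritic cells, their transcription factor Zbtb46 and the chemokine receptor Xcr1 of cross-presenting dendritic cells had means of 0.153 to 0.301 FPKM in both groups and were not tested. Cd209a averaged 0.433 ± 0.131 (SD, n = 7) FPKM under AIMD and 0.150 ± 0.181 (SD, n = 8) under vehicle and was not tested either. Of 19 genes on the list, 12 were tested and 1 was called, where 36.1% of all genes were. It was Ly75, which encodes the endocytic receptor DEC-205. Its FPKM was 2.47 to 6.21 in AIMD mice and 7.16 to 14.97 in vehicle mice (log2 fold change -1.46, limma adjusted p = 1.76e-05). The groups did not overlap, as in 8.55% of all genes tested. These levels lay well above those of Flt3, Zbtb46 and Xcr1, and which cells of the wall carried the Ly75 RNA was not tested. The number of dendritic cell genes lower was 2 without any one of AIMD replicate 7 and vehicle replicates 1 and 2. It was also 2 with quantile normalization, voom, the clock score or the clock clusters. The number higher rose from 0 to 1 with no filter and without AIMD replicate 3. Of the 10 genes, Itgax is the one most used to mark dendritic cells, and gut macrophages express it as well.

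Monocyte genes were divided, with 1 higher and 3 lower of 8 tested, where 19.4% of all genes were higher and 16.7% lower. Plac8, which colonic epithelium also expresses, was higher at 785 ± 128 (SD, n = 7) against 431 ± 123 (SD, n = 8) FPKM (0.89, limma adjusted p = 0.000954). Among those lower were the calcium-binding protein S100a4 (-1.01, limma adjusted p = 0.00335; 51.7% of its exon bases are shared with Gm42674) and the immediate early nuclear receptor Nr4a1 (-0.97, limma adjusted p = 0.00879). Ccr2, the receptor by which monocytes leave the marrow, had 0.612 ± 0.232 (SD, n = 7) and 0.639 ± 0.319 (SD, n = 8) FPKM (-0.01, limma adjusted p = 0.975). The monocyte antigen Ly6c2 was below the filter at 0.173 ± 0.109 and 0.163 ± 0.0714 FPKM.

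Among 10 tested ligands and partners of the 10 genes, 1 was called higher and 1 lower, where 19.4% of all genes were higher and 16.7% lower. Il34, a ligand of Csf1r, was called higher in AIMD mice, at 1.19 ± 0.501 (SD, n = 7) against 0.642 ± 0.248 (SD, n = 8) FPKM (log2 fold change 0.53, limma adjusted p = 0.0343). The call was lost without any one of AIMD replicates 2, 5, 6 and 7 and vehicle replicates 3 to 7, and with no filter, voom or the exact rank-sum test (adjusted p up to 0.0834). Csf1, the other ligand, was below the filter at 0.544 ± 0.266 and 0.449 ± 0.211 FPKM. Flt3l, the growth factor of dendritic cells, was lower (-0.74, limma adjusted p = 0.000858), and 22.1% of its exon bases are shared with Gm45713. Cx3cl1, the ligand of Cx3cr1, and Itgb2, the beta chain that pairs with the product of Itgax, had log2 fold changes of 0.36 and 0.17 and did not pass (limma adjusted p = 0.139 and 0.527).

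Of 12 tested complement genes other than C1q, 1 was called higher and 3 lower, where 19.4% of all genes were higher and 16.7% lower. Cd55, which protects cells from complement, was called higher (0.62, limma adjusted p = 0.0326). This call was lost without any one of AIMD replicates 4 to 7 and vehicle replicates 1, 2, 3, 4 and 6, with no filter and with the exact rank-sum test (adjusted p up to 0.0941). Properdin Cfp, the C5a receptor C5ar1 and C2 were called lower (-0.63, -0.53 and -0.49, limma adjusted p = 0.0242, 0.0362 and 0.00605), C2 with 42.8% of its exon bases shared with Gm20547. Of these, C2 kept its call with each mouse left out, Cfp lost it without AIMD replicate 1, and C5ar1 kept it with 6 of 15 mice left out in turn. The number lower was 1 without AIMD replicate 1, with no filter and with the filter of FPKM 1. Fc receptors and myeloid signalling genes gave 4 higher and 1 lower of 20 tested, beside the same shares of all genes, 19.4% and 16.7%. Among those higher were the activating Fc receptors Fcgr3 and Fcgr4 and the kinase Syk that acts downstream of them (0.94, 0.59 and 0.84, limma adjusted p = 0.00617, 0.0364 and 0.000599), Fcgr4 with its call kept for 7 of 15 mice left out in turn. The leukocyte actin regulator Coro1a was called lower (-0.71, limma adjusted p = 0.0368), but not without any one of AIMD replicates 1, 2, 3 and 5 and vehicle replicates 1, 3 and 8, nor under 3 of 11 alternatives (adjusted p up to 0.0868). Ptprc, the pan-leukocyte antigen CD45, did not pass (-0.32, limma adjusted p = 0.331).

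**Figure D4:**
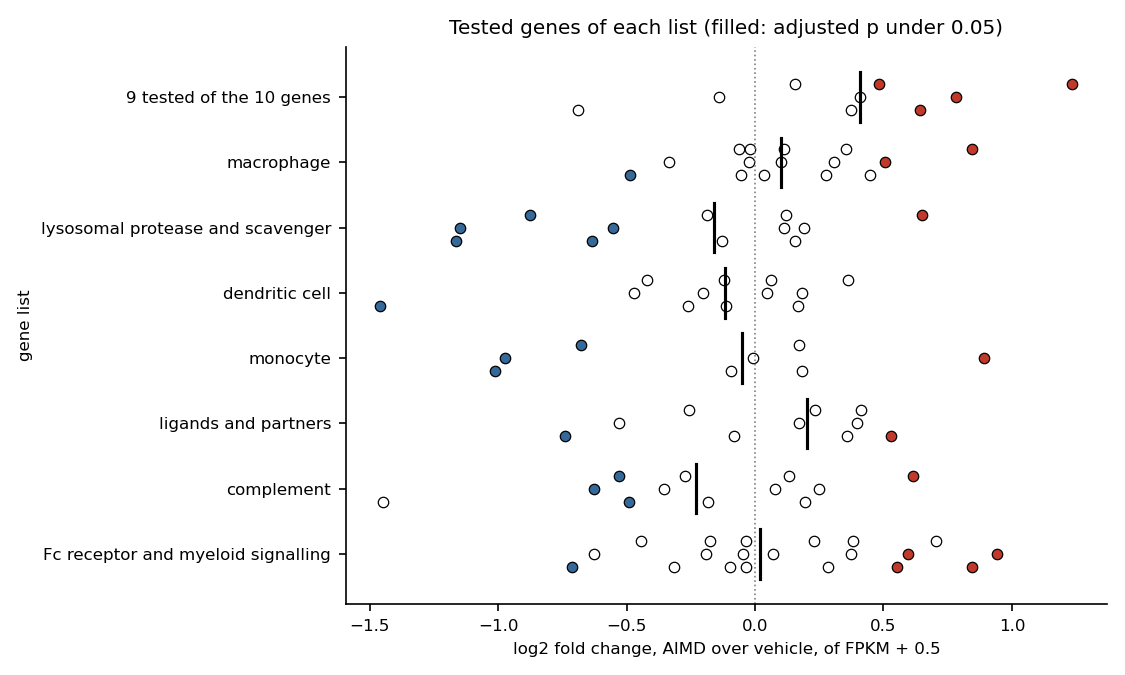
Log2 fold changes of AIMD over vehicle (horizontal axis, of FPKM + 0.5) of the tested genes of 8 lists (vertical axis), with a bar at each list's median and filled points for a limma adjusted p under the threshold (red higher, blue lower). The 9 genes have 4 red points and a median of 0.41, and the lysosomal list has 5 blue points and 1 red.

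Markers of other cells of the cecum wall were counted in the same fit, where 36.1% of all genes were called, 19.4% higher and 16.7% lower. Of those tested, 1 of 10 T cell genes was called, lower (Lck), and 5 of 9 B and plasma cell genes, Xbp1 higher and 4 lower, with Cd79b, Mzb1 and Blk among them. Of 3 mast cell and eosinophil genes 0 passed by limma, and 0 had an unadjusted p under 0.05. Only 1 neutrophil gene was tested, Ly6g, which was called higher (1.46, limma adjusted p = 0.0324), with Elane and Ngp at 0 in all mice. The Ly6g call was lost without any one of AIMD replicates 1 and 2 and vehicle replicates 1, 3, 4 and 6. It was also lost with no filter and with limma voom. The 10 neutrophil genes summed to 1.01–30.2 FPKM (median 2.78) in AIMD mice and 0.551–1.38 (median 0.985) in vehicle mice, and neutrophils express Lyz2 as well. Epithelial genes gave 2 higher (Krt8 and Vil1) and 2 lower (Muc2 and Krt18) of 10, fibroblast genes 1 higher (Col3a1) and 3 lower (Lum, Dpt and Fbln1) of 9, and endothelial genes 1 lower (Plvap) of 7. Of 10 smooth muscle genes 2 were lower (Tagln and Synpo2), of 7 enteric neuron and glia genes 6 were lower, with Tubb3, Uchl1, S100b and Snap25 among them, and of 2 fat genes Adipoq was lower. Of the calls named here, those of Krt8, Col3a1 and Lum were each kept with at most 6 of 15 mice left out in turn, smooth muscle genes lower numbered 5 and 4 without vehicle replicates 3 and 5, endothelial genes lower 2 without vehicle replicate 1, and enteric neuron and glia genes lower 3 without any one of vehicle replicates 2 and 4 to 8 or 4 without vehicle replicate 1. The part of these cells in the values of the 10 genes was not tested.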

How the data were processed

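Per the labels and the study's methods, poly-A RNA of emptied ceca was sequenced from stranded libraries with 50-base single reads, and the authors used STAR for mapping (GRCm38), featureCounts with a GENCODE annotation for counting, and DESeq2 with time of sacrifice as a second factor. The deposited values are FPKM per gene symbol and mouse, which the authors did not pool. How counts became FPKM is not given in the sources used here.

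Whole reads were recovered for 100% of 24279 genes above 0 (tolerance 0.05 of a read), 68.7% of them with exon lengths of GENCODE M21. Of 45808 rows, 4 with a repeated symbol were left out. After division by size factors (median of ratios, 1.01 in every mouse), log2(FPKM + 0.5) was tested with lmFit and eBayes with trend in limma 3.58.1 (R 4.3.3), two-sided, with an adjusted p threshold of 0.05. Adjusted p-values printed after a log2 fold change are from this fit. Other steps used matplotlib 3.10.9, scipy 1.17.1, pandas 2.3.3 and numpy 2.4.6 under Python 3.11.15. Correlations used 100000 permutations within groups. Methods were tested on simulated data.

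The 10 genes and all lists were chosen with earlier results of these data known. Genes named from the lists are those past the threshold, at most 4 per list and direction, and a fixed set of defining genes, with the 5 genes most like C1q. Some genes under this rule are counted but not reported here by name. The clock score is the first principal component of 12 clock genes centred within groups, and its sign gave the clusters. Replicate numbers name mice. Alternatives were other scalings, pseudocounts, filters and tests, a replicate block, the clock score or clusters, and each mouse left out in turn.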

Additional observations from a re-analysis of the deposited data

Results flagged for a closer look

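In 4 of the 20 sets of values examined (10 genes in 2 groups), 1 mouse lay far from the others of its group. The cutoff flags about 1 set in 20 by chance if values are independent and normally distributed. The sets share the same mice and hold FPKM without a log scale, so that rate need not hold here. The mouse was vehicle replicate 8 each time, the least deep library, as the highest vehicle mouse. Csf1r had an FPKM of 1.59 there against 0.772 in the next mouse, C1qb 12.4 against 8.01, Itgax 2.32 against 1.20 and Cd163 1.42 against 0.714. Vehicle replicate 8 was also the highest vehicle mouse for Lyz2 (54.7), C1qa (13.0), C1qc (11.5) and Cd68 (1.45), though not flagged there. The summed FPKM of smooth muscle (3185), enteric neuron and glia (91.3), fibroblast (168), fat (36.7) and T cell genes (45.4) was also highest of all mice in this one, and that of epithelial (5766) and Fc receptor and myeloid signalling genes (159) was the highest among vehicle mice. Their part in these values was not tested. Without it, 6 of the 9 genes were called higher in AIMD mice, with C1qb and Itgax added, where 38.9% of all genes were called.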

How the results depend on the processing

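Lyz2 and Csf1r were called higher under every alternative that tested them, Csf1r being below the filter of FPKM 1, and Lyz2, Csf1r, Cd68 and C1qa with every mouse left out in turn. Besides Cd68 with voom (adjusted p = 0.0555) and C1qa with the exact rank-sum test (adjusted p = 0.0574), none of the 4 called among the 9 genes lost its call outside the clock clusters. Of 25 genes called in the myeloid, lysosomal and complement lists, 14 kept their call with each mouse left out in turn and 14 under each alternative that tested them. The number of genes called lower rose from 0 to 1, always Mrc1, with the filter of FPKM 1, the replicate block, the clock score or the clock clusters as a term, and within cluster B. It ranged from 0 to 1 with mice left out in turn. Within cluster A, 0 genes were called, and 0 higher. None of the 9 genes and none of those 25 reversed in direction under any alternative run, while the median log2 fold change of all genes, 0.01, was -0.02 with voom.

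Replicate numbers were shared by AIMD and vehicle mice, but correlations of same-numbered mice ran from -0.35 to 0.43, 2 of 7 over 0.1. Only 1 of 7 AIMD mice correlated best with its own number, so same-numbered mice were not shown to be pairs. The numbers do follow the clock clusters, with replicates 1 to 3 in cluster A and 5 to 7 in cluster B in both groups. A replicate block therefore takes up part of the difference between clusters. With the replicate block, which leaves out vehicle replicate 8, 7 of the 9 genes were called, 6 higher and 1 lower, and 4621 genes in the whole table, while enteric neuron and glia genes lower went from 6 to 3. Read numbers were lowest for Cd163, Cd68, Cx3cr1 and Csf1r.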
